A study of Mus musculus with 6 samples.

Results

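RNA-Seq counts of 9 genes of the developing retina, Atoh7, Neurod1, Pou4f2, Isl1, Tubb3, Nefl, Stmn2, Gap43 and Elavl4, were followed through 6 pools of mouse embryonic lenses. The genes were chosen by name, as transcription factors of retinal progenitors and early retinal neurons and as structural genes of young neurons. All 9 were among the 13024 genes of the count table, and all 9 passed the filter on low counts. Each pool held 10 lenses from 5 embryos at E14.5, and 3 pools per genotype were sequenced as polyA RNA. Mice were of mixed C57BL/6 and FVB background. The Gata3 CKO pools came from Gata3 f/f, Pax6-Cre/+ embryos, in which an ocular enhancer and promoter of Pax6 drive Cre in lens and corneal precursors and in scattered cells of the retinal neuroectoderm. The control pools are labelled wild type. The study's text gives them as Gata3 f/wt in one place and Gata3 f/f in another, both without Cre, so CKO and control also differed by the transgene.

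The vertebrate lens has no neurons. It is a closed epithelium that gives rise to crystallin-rich fibre cells, and it lies against the neural retina in the optic cup. Retinal ganglion cells are the earliest neurons born in the retina. Atoh7 makes dividing progenitors competent for the ganglion cell fate, and Pou4f2 and Isl1 then drive ganglion cell differentiation and axon outgrowth. In bulk RNA, fewer cells of a type and less RNA per cell of that type cannot be told apart.

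Between 15157230 and 18811104 fragments per pool were counted on genes. Levels are CPM, counts per 1000000 counted fragments after edgeR's TMM correction of library size. Gata3 itself had 12.8, 27.2 and 8.71 CPM in control pools 1, 2 and 3 and 59.0, 54.1 and 46.5 CPM in CKO pools 1, 2 and 3. Since these counts cover the whole gene and not the floxed exon, they do not check the deletion, and they were higher in the pools labelled CKO. The study reports that its RNA-Seq showed excision of the floxed exon in mutant lenses. It also reports much lower Gata3 in E14.5 mutant lenses by qPCR with primers reaching into that exon. Neither the reads along the gene nor the qPCR were analysed here. The names CKO and control below are those of the labels. Crystallin genes took 16.5% of the counts of control 2 and between 5.48% and 9.31% of those of the other pools.

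Promoter sequences are given for the 4 transcription factors and a start of Elavl4. Their part in the levels of these genes was not tested. RefSeq windows of 250 bases before the transcription start (GRCm38.p6, the assembly of mm10) were matched for 6 of the 9 genes, with 9 windows because Elavl4 has 4 starts, and 2 of these overlap. The sequences run 5′ to 3′ and stop before the first base that GENCODE M21 annotates as exon. Capitals mark E-boxes, the motif CANNTG that proneural basic helix-loop-helix factors such as Atoh7 and Neurod1 recognise, and the GATA motif TGATAA.
Atoh7 (chr10:63099535-63099650, forward strand): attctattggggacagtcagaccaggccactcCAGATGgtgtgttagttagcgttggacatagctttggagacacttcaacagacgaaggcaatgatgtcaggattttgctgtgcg
Neurod1 (chr2:79456786-79456886, reverse strand): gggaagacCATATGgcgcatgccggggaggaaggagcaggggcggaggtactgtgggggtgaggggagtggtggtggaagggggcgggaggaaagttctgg
Pou4f2 (chr8:78436648-78436897, reverse strand): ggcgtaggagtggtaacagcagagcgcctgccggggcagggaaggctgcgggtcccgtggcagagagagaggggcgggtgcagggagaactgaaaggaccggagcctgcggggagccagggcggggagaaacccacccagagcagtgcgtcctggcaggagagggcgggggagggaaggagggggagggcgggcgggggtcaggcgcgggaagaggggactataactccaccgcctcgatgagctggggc
Isl1 (chr13:116309690-116309938, reverse strand): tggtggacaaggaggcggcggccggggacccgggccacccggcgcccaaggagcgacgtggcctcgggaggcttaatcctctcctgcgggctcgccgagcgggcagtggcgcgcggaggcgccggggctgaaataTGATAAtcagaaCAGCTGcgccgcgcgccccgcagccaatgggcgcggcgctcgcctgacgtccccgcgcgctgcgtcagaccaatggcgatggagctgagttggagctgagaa
Elavl4 (chr4:110287528-110287777, reverse strand): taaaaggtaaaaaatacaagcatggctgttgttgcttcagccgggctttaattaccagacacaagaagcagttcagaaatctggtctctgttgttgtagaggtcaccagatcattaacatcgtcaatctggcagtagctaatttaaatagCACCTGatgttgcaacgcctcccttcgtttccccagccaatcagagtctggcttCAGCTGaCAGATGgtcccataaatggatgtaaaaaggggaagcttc

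An E-box lay within the 250 bases of 4 of the 6 genes, Atoh7, Neurod1, Isl1 and Elavl4. Over 32851 mouse windows of the same length, 66.2% held one on either strand, so this share is near that of all promoters. The stricter E-box CAGATG was found at Atoh7 and Elavl4 and in 14.4% of all windows. The other E-boxes in capitals are further forms of the same motif. GATA motifs were searched on both strands as AGATAA with its variant AGATAG and as TGATAA with its variant TGATAG. One was found at Isl1 alone among the 6 genes, and 26.5% of all windows held one. These are matches of letters in short windows, and none is a measured binding site.

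The 4 transcription factors were read in every pool. Atoh7 (chr10:63099651-63101279) had 164, 106 and 253 CPM in control 1, 2 and 3 and 186, 173 and 247 CPM in CKO 1, 2 and 3. Control 2 was the lowest pool and control 3 the highest, with all 3 CKO pools between them. Its mean was 174 ± 73.6 CPM (SD, n = 3) in control and 202 ± 39.4 CPM (SD, n = 3) in CKO.

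Neurod1 (chr2:79452521-79456751), a factor of amacrine and photoreceptor precursors, had 71.5, 38.5 and 108 CPM in control and 78.6, 69.9 and 80.9 CPM in CKO. Its control spread of 72.6 ± 34.6 CPM (SD, n = 3) stood against 76.5 ± 5.81 CPM (SD, n = 3) in CKO. Control 2 and control 3 again bounded all other pools. Neurod1 shares 201 exon bases with Cerkl on the same strand and 154 with the antisense RNA Gm26755, and how the counting treated overlaps was not stated, so its absolute level is uncertain.

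Pou4f2 (chr8:78433010-78436645), the POU-domain factor of ganglion cells, had 69.3, 37.6 and 103 CPM in control and 75.3, 71.8 and 93.3 CPM in CKO. Isl1 (chr13:116298281-116309689), a LIM-homeodomain factor of ganglion cells and some other retinal neurons, had 77.2, 37.8 and 122 CPM in control and 86.5, 75.1 and 105 CPM in CKO. For both genes the control pools spanned the CKO pools. The means were 70.0 ± 32.8 and 80.1 ± 11.6 CPM for Pou4f2 in control and CKO (SD, n = 3 each). For Isl1 they were 78.9 ± 42.0 and 88.8 ± 15.1 CPM (SD, n = 3 each).

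The 5 structural and growth genes of neurons had the same lowest and highest pools as the factors. Tubb3 (chr8:123411424-123422015), the neuronal β-tubulin, had 425, 203 and 670 CPM in control and 485, 396 and 576 CPM in CKO. Nefl (chr14:68083863-68089095), the light neurofilament subunit, had 130, 50.8 and 185 CPM in control and 146, 136 and 185 CPM in CKO. For Nefl, the highest CKO pool came close to control 3. Nefl shares 1108 exon bases with Nefm on the opposite strand. The study gives its libraries as strand-specific, but the strand setting of the counting was not stated, so reads of these genes may be mixed.

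Stmn2 (chr3:8509360-8561606), a microtubule regulator of growth cones, had 185, 83.2 and 295 CPM in control and 219, 181 and 244 CPM in CKO. Gap43 (chr16:42248442-42340651), a membrane protein of growing axons, had 156, 75.5 and 260.5 CPM in control and 192, 159 and 211 CPM in CKO. Elavl4 (chr4:110203722-110351909), a neuronal RNA-binding protein, had 115, 57.8 and 171 CPM in control and 133, 108 and 143 CPM in CKO. In all 3 genes CKO 2 was the lowest and CKO 3 the highest of the CKO pools, and the range of CKO lay inside that of control.

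The control mean of Tubb3 was 433 ± 233 CPM and its CKO mean 486 ± 89.9 CPM (SD, n = 3 each). Nefl averaged 122 ± 67.6 CPM in control and 156 ± 26.0 CPM in CKO, and Stmn2 188 ± 106 and 215 ± 31.9 CPM (SD, n = 3 each). Gap43 averaged 164 ± 92.7 and 187 ± 26.3 CPM, and Elavl4 114 ± 56.5 and 128 ± 18.0 CPM, in control and CKO (SD, n = 3 each). The SD among control pools was larger than the difference of the means in every one of the 9 genes.

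**Figure D1:**
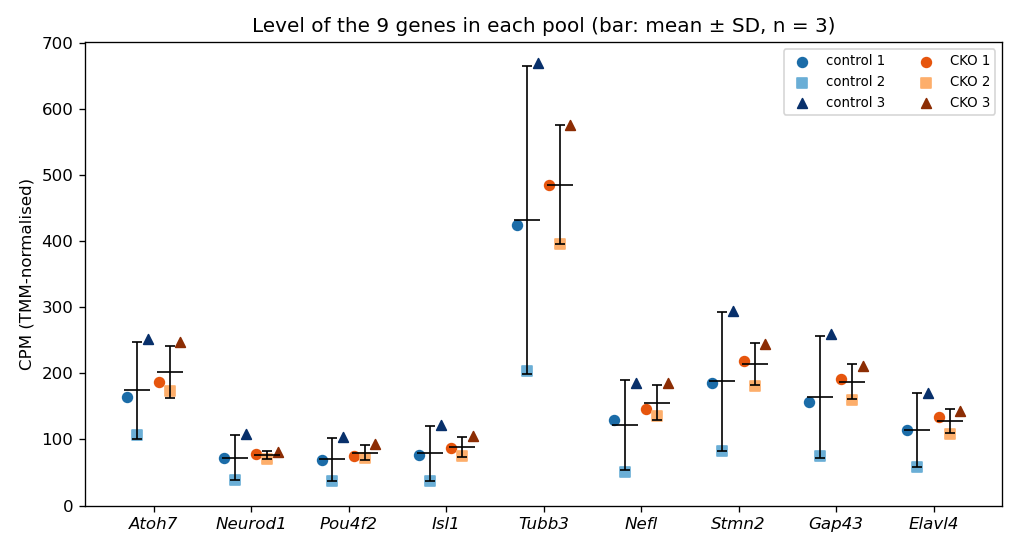
TMM-normalised CPM (linear axis from 0) of each of the 9 genes in the 6 pools, with control in blue and CKO in orange and black bars for the mean ± SD of 3 pools. In every gene control 2 is the lowest pool and control 3 the highest, and the 3 CKO pools lie between them.

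Over the 9 genes, the highest control pool was 2.37 to 3.65 times the lowest, with a median of 3.22. Among CKO pools the same ratio was 1.16 to 1.45, with a median of 1.35. The counting error of a single value was 0.913% to 4.33%, which covers the sampling of fragments and not the difference between pools of embryos. In 9 of 9 genes control 2 was lowest and control 3 highest of the 6 pools, an order held by 16.9% of the 12879 genes tested. All 3 CKO values lay between the control extremes in 9 of 9 genes, and in 38.6% of the genes tested. The 9 genes together took 0.139%, 0.0600% and 0.224% of the counts of control 1, 2 and 3. In CKO 1, 2 and 3 they took 0.163%, 0.143% and 0.198%.

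Per kilobase of annotated exon, averaged over the 6 pools, Tubb3 was the most abundant with 246 CPM per kb. Atoh7 (116) and Gap43 (115) followed, and their order held in 3 of 6 pools, so they were not separated. Nefl (41.1), Stmn2 (35.9) and Neurod1 (27.3) came next, each above its neighbour in 6 of 6 pools. Pou4f2 (23.4) was above Elavl4 (22.5) in 5 of 6 pools, and Elavl4 was above Isl1 (21.2) in 6 of 6. Lengths are the union of the annotated exons of each gene, so genes with long alternative ends rank lower than their used transcripts would.

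The comparison of the genotypes asked whether loss of Gata3 changed these genes. None of the 9 passed the test. Fold changes of CKO against control on the log2 scale were 0.21 for Atoh7, 0.07 for Neurod1, 0.19 for Pou4f2 and 0.17 for Isl1. They were 0.17 for Tubb3, 0.35 for Nefl, 0.19 for Stmn2, 0.19 for Gap43 and 0.16 for Elavl4. Standard errors ran from 0.31 for Atoh7 to 0.42 for Nefl. The median over the 9 was 0.19, against 0.00 over all genes tested.

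In edgeR's quasi-likelihood test with Benjamini-Hochberg adjustment, 0 of the 9 genes had an adjusted p under 0.05 (adjusted p = 0.9998 for each), as had 0% of the 12879 genes tested. None of the 9 had an unadjusted p under 0.05, against 3.55% of all genes. DESeq2's Wald test also called 0 of the 9, against 0.66% of all genes. The groups did not overlap in 0 of the 9 genes, against 8.36% of all genes. In exact two-sided permutation tests of the log2 levels, p lay between 0.5 and 0.8, where the smallest value possible with 3 against 3 pools is 0.1. The 95% intervals were wide. They reached from -0.53 to 0.96 for Atoh7, from -0.73 to 0.88 for Neurod1, from -0.62 to 1.004 for Pou4f2 and from -0.67 to 1.37 for Nefl, and only for Atoh7 did the interval leave out a level 1.5 times lower in CKO.

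The sign of the difference rested on control 2, and its size varied with the pool left out, most with control 2 and control 3. The median of the 9 was 0.07 without CKO 3 and 0.29 without CKO 2. It was 0.18 without CKO 1 and also without control 1. Without control 2, all 9 fold changes were negative, with a median of -0.14. Without control 3, all 9 were positive, with a median of 0.63 and adjusted p of 0.528 to 0.593 in edgeR. In that fit the CKO pools lay above both remaining control pools for 4 genes, Atoh7, Pou4f2, Nefl and Gap43, while 27.7% of all genes had groups that did not overlap.

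**Figure D2:**
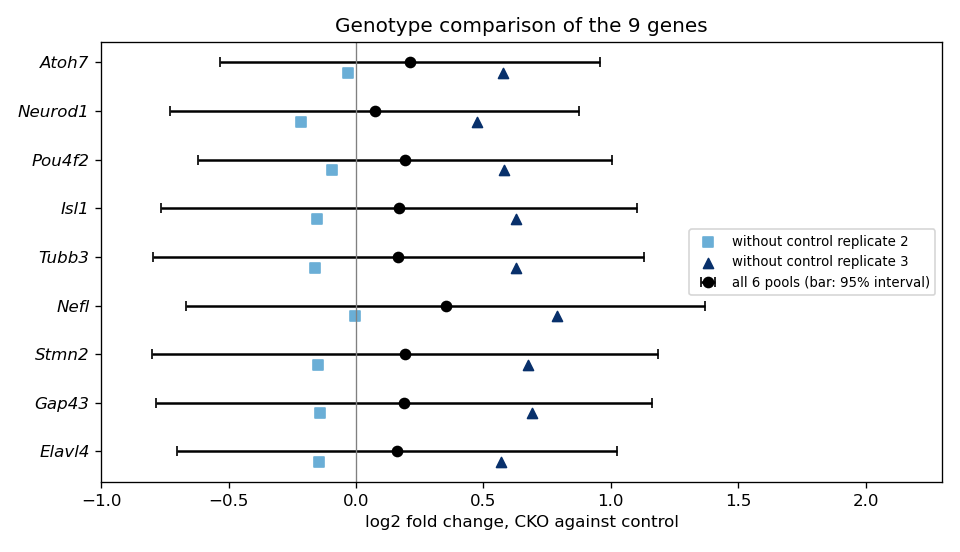
Log2 fold change of CKO against control for the 9 genes, with black points and 95% intervals from edgeR over 6 pools, and the values without control 2 (squares) and without control 3 (triangles). Every interval spans 0, the squares all lie below 0 and the triangles all lie above it.

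The proportions of the 9 genes to one another varied less between pools than their levels. Tubb3 made up 28.9% to 30.9% of their summed CPM over the 6 pools, Isl1 5.40% to 5.62% and Gap43 10.9% to 12.0%. Elavl4 made up 7.59% to 8.36%, Pou4f2 4.70% to 5.45%, Neurod1 4.29% to 5.58% and Stmn2 12.0% to 13.7%. In percentage points the widest range was that of Atoh7, the progenitor factor, whose share was 15.4% in control 2 and 11.6% to 13.1% in the other pools. Nefl showed the opposite, with 7.35% in control 2 and 8.56% to 9.94% elsewhere. Control 2 thus held relatively more Atoh7 and less Nefl than any other pool, alongside the lowest level of both.

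Each gene was also divided by the geometric mean of the other 8 in the same pool, a scale on which a shift shared by all 9 cancels. The SD of this log2 ratio over the 6 pools was 0.03 for Isl1 to 0.18 for Nefl, while that of the log2 level was 0.46 for Atoh7 to 0.69 for Nefl. The difference of CKO and control on this scale ran from -0.15 for Neurod1 to 0.23 for Nefl. The groups overlapped in all 9 genes, with exact two-sided permutation p of 0.2 for both Neurod1 and Nefl. This scale was chosen after the levels had been seen.

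**Figure D3:**
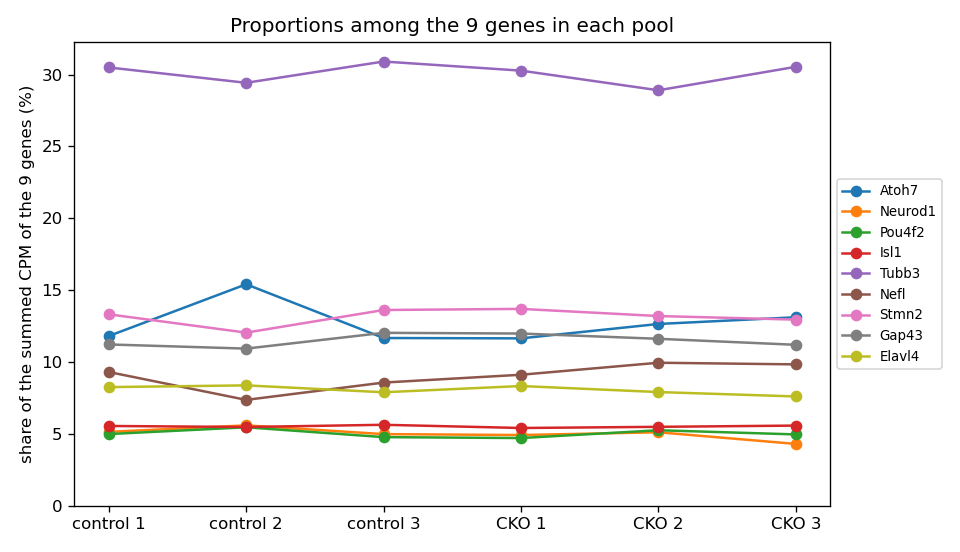
Share of each of the 9 genes in their summed CPM (%) for the 6 pools, with lines joining the values of 1 gene and no order implied among pools. Tubb3 stays between 28.9% and 30.9%, and control 2 shows the highest share of Atoh7 (15.4%) and the lowest of Nefl (7.35%).

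Most other genes of the retina had the same lowest and highest pools. All 18 genes of a retinal progenitor list were measured, and their summed level was 2063 to 4055 CPM in control and 2845 to 3714 CPM in CKO. Fgf15, a signal made by progenitors, had 865, 479 and 1119 CPM in control and 866, 791 and 988 CPM in CKO, a log2 fold change of 0.10. The secreted Wnt modulator Sfrp2 had 615, 413 and 710 CPM in control and 526, 499 and 736 CPM in CKO. The receptor Notch1 had 242, 172 and 337 CPM in control and 269, 231 and 243 CPM in CKO. These 3 genes were lowest in control 2, and 14 of the 18 genes had control 2 lowest and control 3 highest.

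The median ratio of control 3 to control 2 was 1.99 for the progenitor list and 3.22 for the 9 genes, against 0.985 over all genes. Summed over the 5 neuronal genes and divided by the sum of the progenitor list, the level was 0.321, 0.228 and 0.390 in control 1, 2 and 3. It was 0.381, 0.345 and 0.366 in CKO 1, 2 and 3, so neuronal transcripts were lowest relative to the progenitor list in control 2, and the groups overlapped. Control 2 was the lowest pool in 16 of the 18 progenitor genes, but not in Zic1 (134, 140 and 133 CPM in control). The part of cells outside the retina in the sum of this list was not tested.

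Of 25 further ganglion cell genes, 23 were measured, with sums of 553 to 1597 CPM in control and 1075 to 1318 CPM in CKO. Cntn2, an axonal adhesion molecule, had 164, 82.2 and 249 CPM in control and 182, 151 and 197 CPM in CKO. Ebf3, a factor of early ganglion cells, had 130, 60.5 and 203 CPM in control and 146, 134 and 167 CPM in CKO. Dcc, the netrin receptor, had 112, 74.1 and 148 CPM in control and 138, 106 and 130 CPM in CKO. Robo2, a Slit receptor, had 105, 48.8 and 154 CPM in control and 115, 103 and 121 CPM in CKO. In 18 of the 23 genes control 2 was lowest and control 3 highest, and the median ratio of these pools was 3.02. The median log2 fold change was 0.18 and 0 genes passed at an adjusted or an unadjusted p of 0.05.

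Among 24 further genes of postmitotic neurons 23 were measured, and 20 had the same lowest and highest pools. The microtubule protein Map1b had 998, 643 and 1371 CPM in control and 1080, 920 and 1027 CPM in CKO. Dpysl3, a growth cone protein, had 504, 255 and 688 CPM in control and 537, 517 and 562 CPM in CKO. Nefm, the medium neurofilament subunit that overlaps Nefl, had 199, 97.9 and 298 CPM in control and 232, 210 and 305 CPM in CKO.

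Uchl1, a neuronal deubiquitinase, differed from this pattern. It had 171, 196 and 185 CPM in control and 305, 242 and 260 CPM in CKO, so that its groups did not overlap and control 2 was the highest control pool. Its mean was 184 ± 12.5 CPM (SD, n = 3) in control and 269 ± 32.0 CPM (SD, n = 3) in CKO. The log2 fold change was 0.55 (SE 0.11), and it was 0.45 to 0.62 with each pool left out in turn. DESeq2's Wald test called it higher in CKO (adjusted p = 0.00314), while edgeR's quasi-likelihood test did not (adjusted p = 0.486). It was the 1 gene of the retina and neuron lists that either tool called, while DESeq2 called 0.66% of all genes. Which cells the Uchl1 transcripts came from was not tested.

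Genes of other retinal cell types were also read. Of 13 amacrine and horizontal cell genes 9 were measured, and 6 had control 2 lowest and control 3 highest. Foxn4, a progenitor factor for these cells, had 129, 79.5 and 178 CPM in control and 139, 119 and 149 CPM in CKO, and Onecut2 had 88.4, 52.4 and 139 CPM in control and 104, 87.4 and 102 CPM in CKO. Tfap2b went with other pools, at 76.0, 19.3 and 51.8 CPM in control and 41.8, 94.7 and 42.9 CPM in CKO, where control 1 and CKO 2 were also the pools richest in mesenchyme markers. Meis2 was nearly even, at 48.7, 56.4 and 49.3 CPM in control and 43.8, 51.6 and 46.8 CPM in CKO.

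Gad2, which makes the inhibitory transmitter GABA, had 25.8, 24.6 and 35.2 CPM in control and 38.3, 43.7 and 43.6 CPM in CKO. Its groups did not overlap, and its log2 fold change of 0.55 (SE 0.15) did not pass in edgeR (adjusted p = 0.913) or DESeq2 (adjusted p = 0.22). Its ratio of control 3 to control 2 was 1.43, against a median of 2.70 over the 79 measured genes of the further retina and neuron lists. Which cells the Gad2 transcripts came from was not tested. Gad2 is named because of its values.

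Of 8 photoreceptor precursor genes 6 were measured, and all 6 had control 2 lowest and control 3 highest. Otx2, which specifies photoreceptors, had 81.0, 38.4 and 110 CPM in control and 80.3, 70.8 and 84.8 CPM in CKO. Thrb, the thyroid hormone receptor of cones, had 61.0, 37.6 and 71.8 CPM in control and 60.8, 54.6 and 60.6 CPM in CKO.

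Over the 79 measured genes of these 5 lists together, 64 had control 2 lowest and control 3 highest, and in 65 the CKO pools lay inside the control range. The median log2 fold change was 0.15, with 71 genes above 0 and 8 below, and without control 2 it was -0.13 with 8 above 0 and 71 below. At an unadjusted p of 0.05, 2 of the 79 were higher and 0 lower in edgeR, and 0 passed after adjustment. The 2 were Uchl1 and Gad2, which were also the 2 genes whose groups did not overlap. Over all genes tested, 3.55% had an unadjusted p under 0.05 in edgeR and 8.36% had groups that did not overlap.

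**Figure D4:**
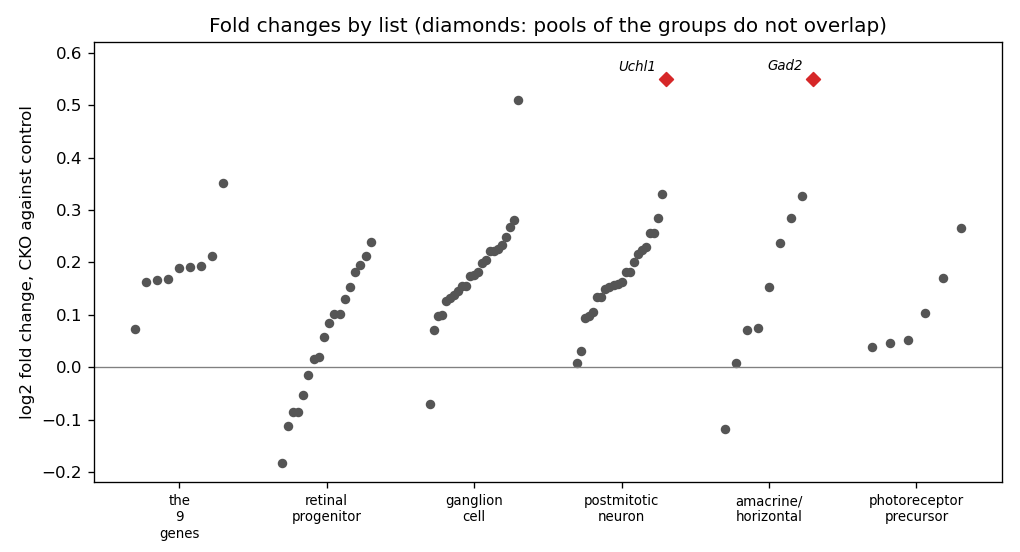
Log2 fold change of CKO against control for each gene of the 9 and of the 5 further retina and neuron lists, 1 point per gene, with red diamonds where the 3 CKO pools do not overlap the 3 control pools. Only Uchl1 and Gad2 are diamonds, both at 0.55, and the 9 genes lie between 0.07 and 0.35.

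The genes most like the 9 in their pattern were sought among 1081 genes with an SD of log2 CPM of at least 0.5, by Pearson correlation with the mean standardised level of the 9 over the 6 pools. Outside all lists, Lonrf3 (r = 0.999), Tagln3 (0.999), Scrt2 (0.997), Celf6 (0.997), Chgb (0.997) and Syp (0.996) came first. Tagln3 is a neuronal actin-binding protein, Scrt2 a neural zinc-finger factor, Chgb a protein of secretory granules and Syp the synaptic vesicle protein synaptophysin. Syp had 30.5, 14.3 and 44.6 CPM in control and 34.3, 31.2 and 39.4 CPM in CKO. In all, 252 of the 1081 genes had r above 0.9. These values rest on 6 points that share library and depth, and they are descriptions.

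Genes of other cell types were set beside the 9. Lens fibre genes (19 of 19 measured) summed to 90862, 184951 and 63222 CPM in control 1, 2 and 3 and to 74638, 59466 and 54083 CPM in CKO 1, 2 and 3, so the pool lowest in the 9 genes was the highest in fibre genes. Across pools, the correlation of single fibre genes with the mean of the 9 was -0.94 to -0.63. Lens epithelium genes (5 of 5) summed to 1299 to 1504 CPM in control and 1250 to 1285 CPM in CKO, while single genes had ratios of control 3 to control 2 from 0.348 to 1.53. The list held Foxe3, Pax6, Cdh1, Gja1 and Six3, and the part of retinal cells in its sum was not tested. The lens fibre markers were present in every pool, as labelled.

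Mesenchyme genes (11 of 12) summed to 2394, 685 and 319 CPM in control and 363, 4206 and 621 CPM in CKO. Pigment cell genes (7 of 9) summed to 348, 104 and 73.1 CPM in control and 93.2, 345 and 76.1 CPM in CKO. Both were highest in control 1 and CKO 2. In each of the 9 genes these pools lay above control 2 and below all the other pools. The 9 genes summed to 1393 CPM in control 1 and 1370 CPM in CKO 2. Their sum was 691 CPM in control 2, 2166 CPM in control 3, 1602 CPM in CKO 1 and 1886 CPM in CKO 3. Surface ectoderm genes (6 of 6) summed to 35.5 to 93.5 CPM in control and 51.2 to 150.2 CPM in CKO, vessel genes (7 of 7) to 258 to 329 and 228 to 289 CPM, and macrophage genes (8 of 8) to 76.7 to 146 and 68.2 to 93.8 CPM. Blood genes (8 of 9) summed to 385 to 1392 CPM in control, highest in control 2, and 310 to 455 CPM in CKO, with Hba-a2, Hbb-bs and Hbb-bt listed at 0 in all pools. The count table was limited to genes with an average FPKM above 1, so these 0 values may not be their levels. The blood sum rests on the other 5 genes.

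Neurons of peripheral nerves and ganglia were represented by 3 of 12 genes, which summed to 18.6 to 48.0 CPM in control and 34.4 to 39.6 CPM in CKO. Of these the sodium channel gene Scn9a had 17.9, 6.34 and 32.3 CPM in control and 24.2, 17.3 and 19.1 CPM in CKO. The part of retinal tissue in the dissected pools, and of each of these other cell types, in the levels of the 9 genes was not tested.

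**Figure D5:**
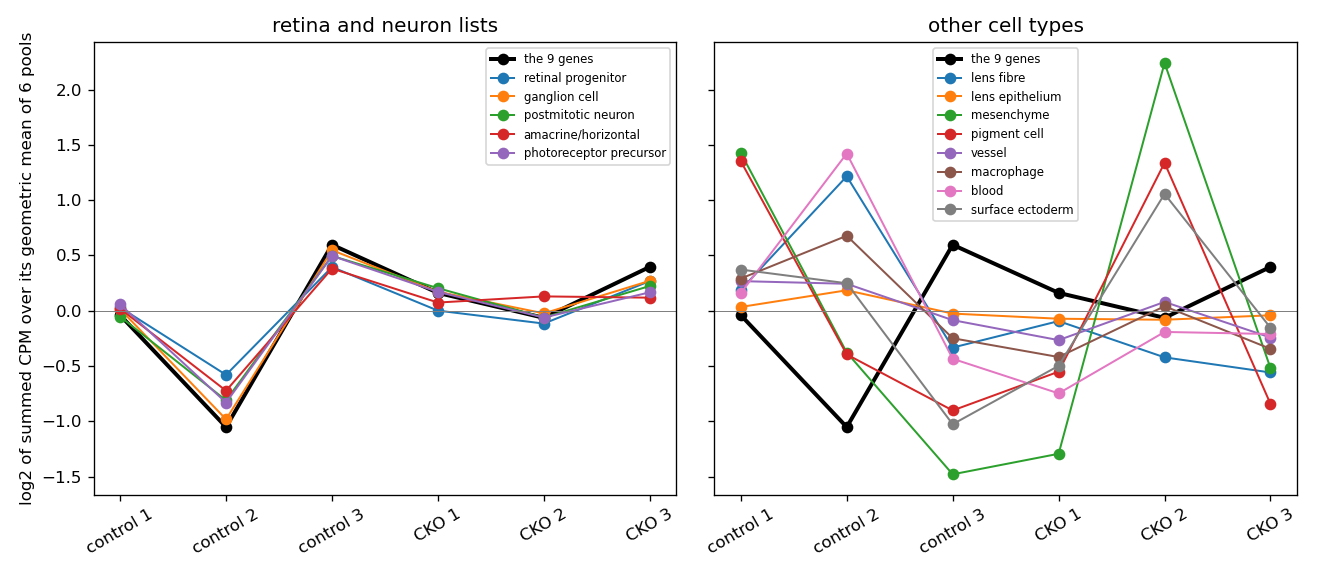
Log2 of the summed CPM of each gene list over its own geometric mean across the 6 pools, for retina and neuron lists (left) and for lists of other cell types (right), with the 9 genes in black and lines joining the values of 1 list. The retina and neuron lists all dip in control 2 and peak in control 3 with the 9 genes, while lens fibre genes peak in control 2 and mesenchyme genes in control 1 and CKO 2.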

How the data were processed

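PolyA RNA of 6 pools was sequenced as paired reads. The authors trimmed reads with Trim Galore, aligned them to mm10 with TopHat2 2.0.13 and counted fragments per RefSeq gene with HTSeq 0.6.1. The deposited values are raw counts per gene, 1 column per pool, limited to genes whose average FPKM from Cuffdiff 2.2.1 exceeded 1 in at least 1 group. The study gives its libraries as strand-specific, but the strand and overlap settings of the counting are not given in the sources used here. CKO pools are numbered by their sample titles.

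Counts of genes with at least 10 in at least 3 libraries were scaled by TMM and compared by the robust quasi-likelihood test of edgeR 4.0.16 under R 4.3.3, with Benjamini-Hochberg adjustment over all genes tested, at 0.05. Exact permutation tests used log2(CPM + 0.5). DESeq2 1.42.0, other normalisations, no low-count filter, the replicate number as a block and the loss of each library were alternatives. The tests were also run on simulated counts in which each gene varied independently. That run does not cover a shift shared by many genes of a pool. Counting error is the Poisson error of the count and covers sampling of fragments only.

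The 9 genes, the gene lists and the tests were chosen with earlier results of these data known. Besides the 9 genes and Gata3, the genes named were the most abundant 4 of each further retina or neuron list (2 for the photoreceptor and peripheral neuron lists) and the 6 most like the 9 in pattern. Hba-a2, Hbb-bs, Hbb-bt and Gad2 fall outside this rule and were named after their values were seen. The lens epithelium genes are named only to show what their list held. Some genes that the rule selects are not reported here. Positions and exon lengths came from GENCODE M21, and Python 3.11.15, pandas 2.3.3 and matplotlib 3.10.9 gave tables and figures.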

Additional observations from a re-analysis of the deposited data

How the results depend on the processing

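None of the 9 genes passed an adjusted p of 0.05 under any of the 12 alternatives, and their lowest adjusted p in any of them was 0.528 (edgeR, without control replicate 3). All 9 fold changes stayed positive under DESeq2, RLE size factors, total counts without TMM, crystallins left out, no low-count filter and the replicate block, and turned negative only without control replicate 2. Leave-one-out log2 fold changes ranged from -0.032 to 0.58 for Atoh7, -0.22 to 0.47 for Neurod1, -0.094 to 0.58 for Pou4f2, -0.15 to 0.63 for Isl1, -0.16 to 0.63 for Tubb3, -0.0040 to 0.79 for Nefl, -0.15 to 0.68 for Stmn2, -0.14 to 0.69 for Gap43 and -0.14 to 0.57 for Elavl4, and the number of the 9 with groups that did not overlap ranged from 0 to 4. Total counts without TMM, added after seeing the data for the fold changes, moved the median of all genes by 0.10 and that of the 9 to 0.25. Over all genes, 0 were called in edgeR, 1 with total counts, 0 to 1 with a library left out and 85 in DESeq2.

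With the replicate block, 0 of the 9 genes were called and their median was 0.30. The correlations of same-numbered pools were -0.51, 0.09 and 0.48, so the number was not taken as a pairing, and control 1 correlated best with CKO 2 (0.58). Counting error at this depth was 0.913% to 4.33% of a value, and with 3 pools a group the intervals rest on few degrees of freedom.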
